A study of Mus musculus with 12 samples.

Results

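The genes described here are the mouse zinc finger genes whose symbols run from Zfp600 to Zfp999. They were measured by RNA sequencing in cells described as B16F10, a mouse melanoma line. A gene was taken as a member when its symbol in the deposited FPKM table had this form and its counts summed to 200 or more over the 12 libraries. Of 161 such symbols 138 passed, out of 29549 genes in that table. The members were thus chosen by their symbol and by this summed count, which is not a result: Zfp750 (225 counts), Zfp786 (268) and Zfp773 (302) lay just inside it, and Zfp784 (122), Zfp972 (105) and Zfp831 (95) just outside. Because the sum runs over all libraries, a gene could pass through 1 condition alone: 124 members reached 200 counts in the untreated and in the IR-treated libraries taken separately, 13 only in the untreated libraries, 0 only in the IR-treated ones and 1 in neither. All 138 members passed the filter on low counts and were among the 18183 genes tested.

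The study compared cells with a control guide RNA (sgNC, called control here) and cells with a guide against Rnf19a (sgRnf19a), each untreated or at 24 h of a treatment the labels call IR. Each of the 4 groups, control, control_IR, sgRnf19a and sgRnf19a_IR, had 3 libraries, and all carried a guide. Whether the sgRnf19a cells were a clone or a pool, what IR stands for, its dose, and whether libraries came from separate cultures were not stated in the labels, so the p-values measure the spread between libraries, which may be technical. The IR-treated columns were tied to their group only, with the column numbers 1, 4 and 5 for control_IR and 1, 3 and 4 for sgRnf19a_IR.

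Library totals on the deposited count scale, where 1 read pair is worth about 4 counts, were 34262483 to 71265107. Genes annotated as ribosomal RNA took 0.408% to 0.813% of the counts in untreated libraries and 11.4% to 22.2% in IR-treated ones. The median level of transcripts over 6 kb stood 4.71 to 5.08 above that of transcripts under 1 kb, on the log2 CPM scale, in untreated libraries. This gap was 2.69 to 2.80 in control_IR and 3.50, 2.99 and 4.08 in sgRnf19a_IR libraries 1, 3 and 4, with library 4 the highest of its group. Of 8 melanocyte markers, 4 were at 0 counts throughout (Slc45a2, Mlana, Tyr and Tyrp1). Dct, Pmel and Sox10 summed to 6, 109 and 78 counts over the 12 libraries. Mitf, nearly all of the sum of this list, averaged 11.4 CPM in control cells. The epithelial keratins Krt8, Krt18 and Krt19 averaged 351, 254 and 145 CPM there, and Epcam and Cdh1, also on the epithelial list, 0.829 and 0.0605 CPM. Whether the cells are of the line described was not tested. The summed level of the melanocyte list was 11.8, 2.73, 16.1 and 6.95 CPM in control, control_IR, sgRnf19a and sgRnf19a_IR, that of the epithelial list 751, 1109, 564 and 568 CPM, and that of the leukocyte list 16.4, 7.84, 32.0 and 14.3 CPM. Fibroblast markers summed to 70.3, 67.3, 57.9 and 99.3 CPM and endothelial markers to 2.89, 1.53, 1.64 and 5.15 CPM. The part of these markers in the results below was not tested.

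Most genes of this series of symbols encode C2H2 zinc finger proteins, in which short modules folded around a zinc ion are strung in an array, and each finger reads a few bases of DNA. Many carry a KRAB box at the amino end, which recruits the corepressor TRIM28 and, through it, the H3K9 methyltransferase SETDB1, so that the bound DNA is packed into heterochromatin. KRAB zinc finger genes arose by repeated tandem duplication, lie in gene groups on many chromosomes, and are best known for silencing endogenous retroviruses and other transposable elements. Members without a KRAB box have more varied roles, in transcription, RNA handling and ribosome maturation.

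A KRAB A box was found in 98 members, with 14 or more of 40 residues of the box consensus matched, and not in 39, which matched 10 at most. Zfp939 had no coding transcript in the annotation. The median number of C2H2 fingers was 11 in KRAB members and 7 in the others, and the highest was 33, in Zfp619. KRAB members had AT-rich transcripts, with a median GC content of 40.3% (34.4% to 59.1%) against 52.3% (36.9% to 68.7%) in members without the box and 49.8% over all genes tested. Transcript length differed less, with a median of 3.19 kb in members and 2.70 kb in all genes tested. With read pairs of 37 bp, a stretch of 37 bases found in several genes cannot be assigned to 1 of them: 19 members shared 50% or more of their 37-base stretches with another gene, 26 shared 10% to 50%, and 93 under 10%. All 37-base stretches were shared in 5 members, namely Zfp708, whose closest match is the overlapping gene Gm28557, and Zfp965, Zfp967, Zfp968 and Zfp969 of chromosome 2. The values of such members are uncertain, since they depend on how shared reads were split between copies.

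The stretches below show what a read from these genes can look like. They are the 37-base runs found in the most members and in the most genes of the annotation, written 5′ to 3′ on the transcript strand. In the first, the capitals mark the 18 bases that encode the conserved linker joining one finger to the next. In the other, they mark the codons of the pair of cysteines that hold the zinc ion.
Linker stretch: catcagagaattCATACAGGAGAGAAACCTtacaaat
Cysteine stretch: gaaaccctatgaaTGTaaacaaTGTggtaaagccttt
The linker stretch occurs in transcripts of 35 genes, 12 of them members (Zfp758, Zfp820, Zfp943, Zfp945, Zfp946, Zfp947, Zfp984, Zfp991, Zfp992, Zfp993, Zfp994 and Zfp995), with up to 7 copies in 1 member. The cysteine stretch occurs in 51 genes, 8 of them members, all in the chromosome 2 group (Zfp965 to Zfp971 and Zfp973), with up to 6 copies in 1 member.

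Promoter windows of 300 bases, from 250 before to 50 after the start, were found by symbol in the RefSeq table (GRCm38.p6) for 119 members. The 4 printed here come from 1 group of genes on chromosome 17 whose levels, given further down, moved differently: Zfp820 and Zfp943 fell after IR in control cells, Zfp945 did not pass that test, and Zfp946 was higher with the Rnf19a guide. Capitals mark each CG dinucleotide, which can be methylated.
Zfp820 promoter: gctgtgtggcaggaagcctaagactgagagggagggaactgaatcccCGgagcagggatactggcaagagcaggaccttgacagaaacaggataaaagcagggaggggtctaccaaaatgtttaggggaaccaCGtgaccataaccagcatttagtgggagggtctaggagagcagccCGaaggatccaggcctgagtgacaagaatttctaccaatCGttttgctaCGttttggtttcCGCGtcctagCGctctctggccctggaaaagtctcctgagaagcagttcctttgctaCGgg
Zfp943 promoter: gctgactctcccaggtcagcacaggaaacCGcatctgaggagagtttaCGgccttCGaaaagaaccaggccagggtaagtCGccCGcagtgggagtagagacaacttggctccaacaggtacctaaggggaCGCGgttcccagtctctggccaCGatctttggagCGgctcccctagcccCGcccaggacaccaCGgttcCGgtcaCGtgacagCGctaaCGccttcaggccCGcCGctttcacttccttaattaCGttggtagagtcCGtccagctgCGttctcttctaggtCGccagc
Zfp945 promoter: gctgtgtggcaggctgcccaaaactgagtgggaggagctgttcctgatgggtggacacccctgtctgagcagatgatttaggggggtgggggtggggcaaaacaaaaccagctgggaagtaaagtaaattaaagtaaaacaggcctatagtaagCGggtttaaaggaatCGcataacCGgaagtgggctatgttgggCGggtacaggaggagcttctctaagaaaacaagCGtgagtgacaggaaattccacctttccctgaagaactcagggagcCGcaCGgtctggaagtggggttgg
Zfp946 promoter: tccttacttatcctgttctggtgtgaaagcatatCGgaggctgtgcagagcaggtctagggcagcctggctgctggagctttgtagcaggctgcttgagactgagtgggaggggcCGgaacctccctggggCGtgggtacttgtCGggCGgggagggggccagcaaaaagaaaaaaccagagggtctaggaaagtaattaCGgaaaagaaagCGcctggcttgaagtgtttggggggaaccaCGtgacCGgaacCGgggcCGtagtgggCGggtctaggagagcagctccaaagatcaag
The windows are chr17:21845710-21846009 on the minus strand for Zfp820 (9 CG), chr17:21962309-21962608 on the plus strand for Zfp943 (21 CG), chr17:22867085-22867384 on the minus strand for Zfp945 (7 CG) and chr17:22423952-22424251 on the plus strand for Zfp946 (12 CG). Zfp942 and Zfp943 start next to each other on opposite strands, and 194 bases of their windows are the same DNA. Over the members the median was 11 CG per window, against 7 over all 27025 promoters of the table. Those promoters, unlike the members, were not filtered by expression, so this and the shares that follow compare unlike sets. The letters CCAAT, read on both strands, were present in 60.5% of member windows (72 of 119), in 67.4% of those of KRAB members (60 of 89), in 37.9% of those without a KRAB box (11 of 29) and in 37.9% of all promoters. TATAAA, also on both strands, was present in 3.36% of member windows (4 of 119) and in 14.2% of all promoters. Of the 4 printed windows, CCAAT stands in that of Zfp820 only, and TATAAA in none of them.

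Per transcript length, the members were expressed at modest levels. Their median FPKM over the 12 libraries had a median of 1.95, against 2.35 for all genes tested, and 36 members had a median under 1 FPKM. The highest were Zfp830, a splicing-associated protein gene, Zfp948, Zfp740, Zfp706, Zfp687 and Zfp871, at medians of 18.0, 16.9, 15.8, 14.6, 12.2 and 11.4 FPKM. The 2 of them with a KRAB box differed most between groups. Zfp948 was at 29.7 ± 8.57 FPKM in control, 1.46 ± 0.322 in control_IR, 38.9 ± 0.707 in sgRnf19a and 6.4 ± 6.66 in sgRnf19a_IR (mean ± SD, n = 3 each). Zfp871 was at 20 ± 6.12, 0.961 ± 0.0832, 26.6 ± 1.52 and 4.04 ± 4.13 FPKM in the same order. Zfp830, in contrast, was at 20.1 ± 1.46, 14.7 ± 2.5, 19.5 ± 1.64 and 16 ± 2.02 FPKM. FPKM values are not corrected for the share that ribosomal RNA takes of a library. All other levels below are therefore CPM scaled by TMM factors, which compare a gene between libraries but not 1 gene with another.

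The targeted gene Rnf19a, which encodes a RING-in-between-RING ubiquitin ligase, was read first as a check of the labels. It was at 33.5, 29.4 and 21.5 CPM in control and 27.5, 25.6 and 22.6 CPM in sgRnf19a libraries. The groups overlapped, with a log2 difference of −0.16 (edgeR adjusted p = 0.881), so the RNA level does not tell the guides apart in untreated cells. After IR the gene was at 4.37, 8.06 and 5.39 CPM in control_IR and 18.1, 11.6 and 37.7 CPM in the libraries labelled sgRnf19a_IR, a log2 difference of 1.92 (edgeR adjusted p = 0.00352), higher in the libraries that carry the guide against it.

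After IR in control cells most members fell. Of the 138 members, 93 were lower and 7 higher in control_IR than in control (edgeR quasi-likelihood test, adjusted p under 0.05 over all genes), where 25.7% of all genes tested were lower and 22.2% higher. The median log2 fold change was −2.07 over the members and −0.02 over all genes tested. Among the 124 members that reached 200 counts in each condition the counts were 85 lower and 7 higher, with a median of −1.96. In bulk RNA, fewer cells of a type and less RNA per cell cannot be told apart.

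The fall was mostly a fall of the KRAB class. Of the 98 KRAB members 80 were lower and 0 higher, with a median log2 fold change of −2.58. Of the 39 members without the box 13 were lower and 7 higher, with a median of −0.03. The difference between the classes was not tested on its own, and the classes also differ in GC content.

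GC content of the transcript ordered the responses within both classes. Of the members under 40% GC, 41 of 44 were lower, and their median log2 fold change was −3.14, where 52.8% of all genes in this range were lower, with a median of −1.89. From 40% to 45% GC, 36 of 42 members were lower (median −2.55), against 48.6% of all genes (median −1.11). From 45% to 50% it was 11 of 15 members (median −1.48), against 33.3% of all genes. From 50% to 55% 5 of 20 members were lower and 2 higher (median −0.12), against 14.7% and 27.8% of all genes. At 55% or more 0 of 17 were lower and 5 higher (median 0.30), against 3.92% and 33.2% of all genes. KRAB members with GC-rich transcripts were not among those called: 0 of 7 from 50% to 55% GC and 0 of 4 at 55% or more were lower. AT-rich members without the box were, with 3 of 3 lower under 40% GC and 2 of 3 from 40% to 45%.

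**Figure D1:**
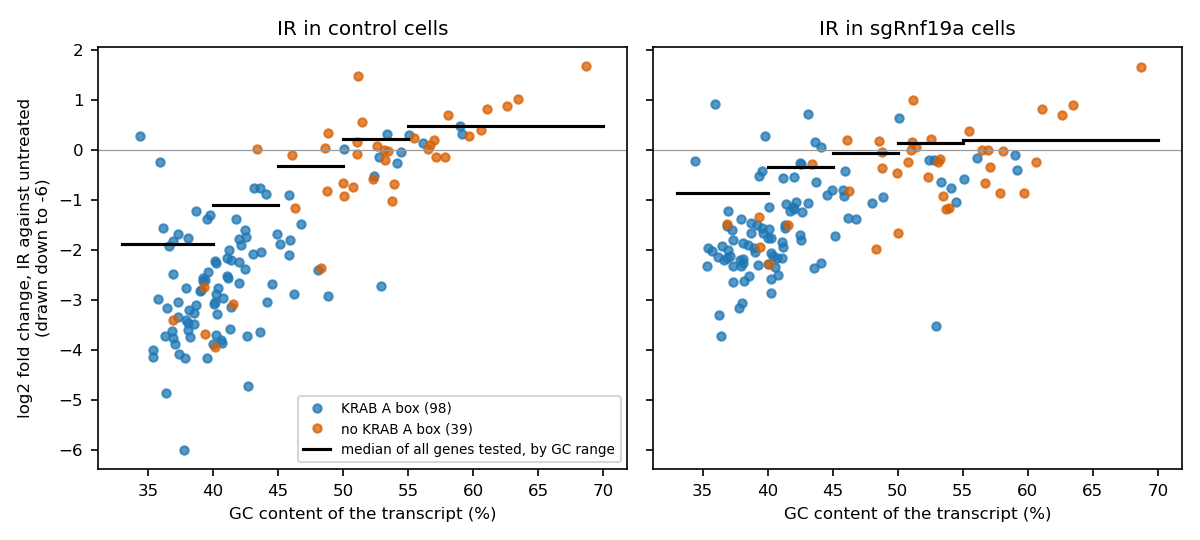
Log2 fold change of each member (vertical axis) against the GC percent of its transcript (horizontal axis) for IR in control cells and IR in sgRnf19a cells. Each point is 1 member, blue with and orange without a KRAB A box, and the black lines are the medians of all genes tested in each GC range; points under −6 are drawn there. In control cells the points under 40% GC centre on −3.14, below the line for all genes at −1.89, and those at 55% or more on 0.30.

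Transcript length ordered the members less than GC did. The rank correlation of the log2 fold change with GC was 0.74 over the 138 members and with length −0.10, whereas over the 18183 genes tested it was 0.43 with GC and −0.38 with length. With length it was −0.17 in the 98 KRAB members and −0.46 in the 39 without the box, of which 0 of 5, 0 of 7, 4 of 11 and 9 of 16 were lower under 2 kb, from 2 to 3 kb, from 3 to 4.5 kb and above. These are descriptions, since the points share their libraries. Of members under 2 kb 11 of 19 were lower, from 2 to 3 kb 27 of 42, from 3 to 4.5 kb 30 of 44 and at 4.5 kb or more 25 of 33. Over all genes the shares in these ranges were 8.58%, 18.8%, 32.6% and 53.3%. With the number of fingers the correlation was −0.40 and with mean abundance 0.04.

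Because level followed length and GC in the libraries themselves, the comparison was repeated with offsets that remove, library by library, the trend of all genes with transcript length and GC. The count then became 66 lower and 10 higher of 138, with a median log2 fold change of −0.74, where 16.9% of all genes were lower and 23.6% higher. KRAB members were 57 lower and 2 higher with a median of −1.29, and members without the box 9 lower and 8 higher with a median of 0.04. With offsets the rank correlation with GC was still 0.495 over the members, against 0.041 over all genes. It was 0.209 in KRAB members and 0.349 in those without the box. The part of GC in the class difference was not tested. Of the 93 members lower without the offsets, 64 were lower with them. The part of RNA quality in these changes was not tested.

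Individual members fell by more than 10-fold. Zfp820, a KRAB member with 12 fingers (chr17:21816885-21845772), was at 29.4, 27.9 and 13.9 CPM in control and 0.852, 0.688 and 0.886 CPM in control_IR. Every control_IR library lay far below every control library, and the fall was 29.3-fold (log2 −4.87, SE 0.60, edgeR adjusted p = 0.000107, with offsets −2.99). Zfp708 (chr13:67069399-67081545), in mouse a KRAB gene known to act on a retrotransposon, was at 4.22, 3.54 and 3.23 CPM in control and had 0 counts in all 3 control_IR libraries. It was at least 30.4-fold lower, taking a floor of 12 counts, or 3 read pairs, over the group (edgeR adjusted p = 0.00301), and all of its 37-base stretches also occur in Gm28557. Zfp708 reached the summed count in the untreated libraries only, so it is a member through the condition in which it is high. Zfp763 was at 11.6, 12.6 and 7.57 CPM in control and 0.568, 0.545 and 0.644 CPM in control_IR (log2 −4.17, SE 0.61, edgeR adjusted p = 0.000208). Other large falls were those of Zfp619 (−4.72, with 0, 0 and 0.268 CPM left), Zfp960 (−4.17), Zfp991 (−4.15), Zfp942 (−4.09) and Zfp758 (−3.99), all with edgeR adjusted p-values under 0.05 and no overlap between the groups. Zfp960 and Zfp991 share 88.6% and 91% of their stretches with other genes.

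The abundant KRAB member Zfp871 (chr17:32765496-32788287) shared only 0.7% of its stretches and had the most counts behind it. It was at 201, 256 and 137 CPM in control and 14.4, 14.2 and 11.7 CPM in control_IR, a 14.8-fold fall (log2 −3.88, SE 0.58, edgeR adjusted p = 0.00024). Among members without a KRAB box Zfp638, whose protein binds nucleic acids and works with the HUSH silencing complex, was at 96.1, 104 and 40.8 CPM and at 5.47, 5.16 and 5.07 CPM after IR (log2 −3.94, edgeR adjusted p = 0.000916). Its transcript is 9.03 kb long with 40.1% GC. Zfp644, a partner of the H3K9 methyltransferases G9a and GLP, fell by 3.08 on the log2 scale, Zfp770 by 3.69, Zfp654 by 3.40 and Zfp800 by 2.75, and each of these 4 has a transcript of 4.3 to 6.26 kb with under 42% GC.

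The 7 members that rose in control cells had no KRAB box. Zfp771 (chr7:127244274-127254803), at 68.7% GC the most GC-rich member, went from 13.6, 10.9 and 19.2 CPM to 46.8, 39.1 and 53.1 CPM (log2 1.67, SE 0.31, edgeR adjusted p = 0.000963), 3.18-fold, and with offsets the difference was 0.48 (adjusted p = 0.0725). Zfp622 (chr15:25984366-25998481), which encodes a factor of large ribosomal subunit maturation, went from 36.7, 29.1 and 47.8 CPM to 109, 100 and 108 CPM. That rise was 2.79-fold (log2 1.48, SE 0.24, edgeR adjusted p = 0.000414) and equally large with offsets (1.48). The groups did not overlap in either gene. Zfp628 (log2 1.02), Zfp787 (0.87), Zfp653 (0.81), Zfp651 (0.70) and Zfp668 (0.56) also rose. With offsets, the rises of Zfp651 (0.98) and Zfp668 (1.08) were larger and those of Zfp787 (0.16) and Zfp653 (0.23) did not pass the test.

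Members lying next to each other on a chromosome were then joined into groups, since tandem copies resemble each other in sequence. Members whose starts lay at most 1 Mb apart formed a group, and 15 groups of 3 or more held 86 of the 138 members. Inside these groups 61 of 86 were lower and 4 higher in control_IR, with a median log2 fold change of −2.51. Outside them 32 of 52 were lower and 3 higher, with a median of −1.27. With offsets the medians were −1.14 and −0.40.

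Groups of AT-rich KRAB genes and groups of GC-rich genes stood apart. In the groups at chromosome 4 (146449023 to 147848366), 13 (67038596 to 67687071), 10 (81901911 to 82241280), 7 (27807196 to 28014115) and 8 (71908608 to 71993792) every member was lower, namely 5 of 5, 6 of 6, 3 of 3, 3 of 3 and 3 of 3. Medians there ran from −2.53 to −3.46. The chromosome 13 group includes Zfp708, a member through its untreated libraries alone. With offsets 5, 3, 3, 2 and 2 members of these groups were lower, and the medians ran from −1.16 to −1.68. In 3 groups with a median GC of 53.4% to 56.1%, hardly any member was lower. These are chromosome 7 (127244274 to 127885992, 1 of 9 lower and 2 higher, median 0.28), chromosome 6 (47819266 to 48623227, 0 of 5, median 0.10) and chromosome 15 (75940952 to 76925448, 0 of 3, median 0.16). These 3 groups hold 4, 4 and 2 KRAB members. A group of intermediate GC content, on chromosome 7 (6131491 to 7209998, median GC 45.8%), had 2 of 5 members lower and 1 higher, with a median of −0.91.

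**Figure D2:**
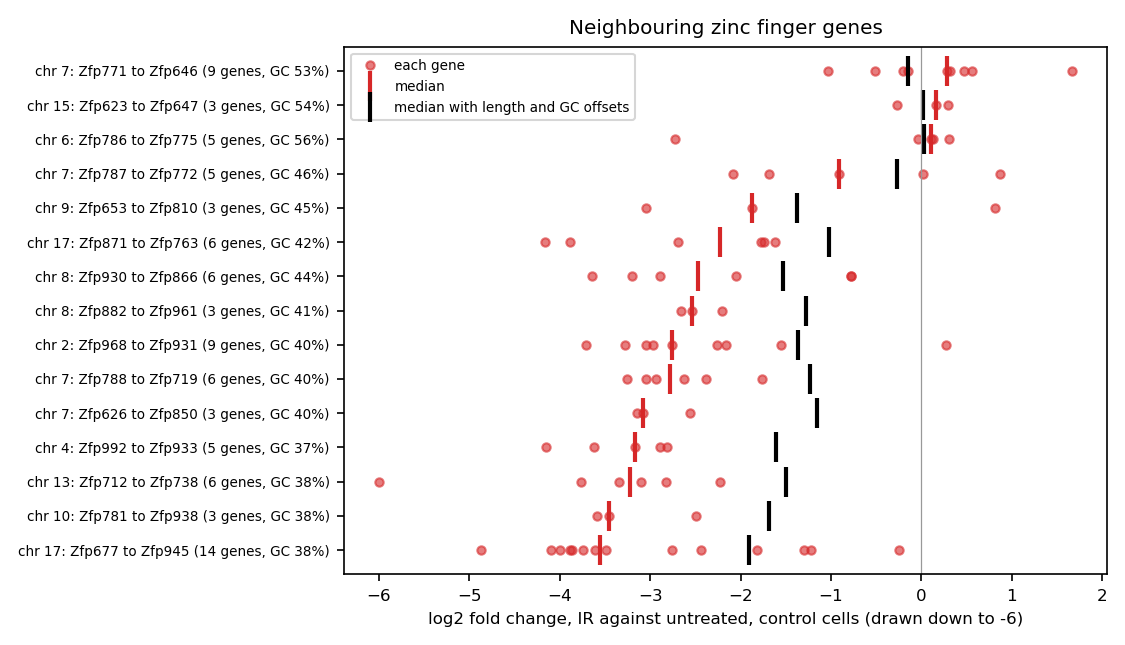
Log2 fold change for IR in control cells of each member (red points, drawn no lower than −6) in the 15 chromosomal groups of 3 or more members, with a red bar at the median of each group and a black bar at its median with length and GC offsets. The 5 groups in which every member was lower have medians of −2.53 to −3.46, and the 3 GC-rich groups medians of 0.10 to 0.28.

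On chromosome 2 (175372436 to 178078476) a group of 9 KRAB members shared a median of 93.2% of their stretches with other genes. Of these 8 were lower in control_IR, with a median of −2.76, and 6 with offsets. Reads from the shared stretches cannot be assigned to 1 of them, so the values of these members are not independent. Zfp931, the exception there, was at 4.65, 2.82 and 3.95 CPM and at 4.22, 4.13 and 5.45 CPM after IR, although its transcript has the lowest GC of all members, 34.4% (log2 0.27, edgeR adjusted p = 0.387, with offsets 1.68, adjusted p = 0.00127). It was picked out after its values were seen. Over the 19 members that share 50% or more of their stretches 18 were lower (14 with offsets), over the 26 that share 10% to 50% 19 (12), and over the 93 that share under 10% 56 (40).

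The largest group, on chromosome 17 (21383748 to 22867134), held 14 members, all with a KRAB box and with transcripts of 35.4% to 40.7% GC. Of these, 13 were lower in control_IR, with a median log2 fold change of −3.55, and with offsets 8 were lower and 1 higher. Zfp942 (33.5, 35.3 and 20.6 CPM in control, 1.38, 1.84 and 1.99 CPM in control_IR) and its divergent neighbour Zfp943 (22.2, 22.7 and 11.8 CPM, then 1.42, 1.18 and 1.23 CPM) fell by 4.09 and 3.89 on the log2 scale, with edgeR adjusted p-values of 0.00033 and 0.000115. Zfp944 and Zfp983 fell less, by 1.22 and 1.30, and with offsets stood at 0.25 and 0.35, neither past the test.

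Zfp945 (chr17:22846697-22867134), at the end of the group, stood apart from it. It was at 21.5, 23.9 and 15.8 CPM in control and 14.4, 17.4 and 19.6 CPM in control_IR, overlapping ranges with a log2 difference of −0.25 (SE 0.20, edgeR adjusted p = 0.323). Its transcript, of 6.62 kb and 35.9% GC, is of the kind that fell in general, and with offsets it was higher, by 2.09 (adjusted p = 4.26e-05). In sgRnf19a cells it was higher after IR without the offsets as well, from 28.4, 30.2 and 31.8 CPM to 50.3, 48 and 70.8 CPM, 1.87-fold (log2 0.90, SE 0.20, edgeR adjusted p = 0.00404). Without sgRnf19a_IR library 4 the log2 difference was 0.70 (adjusted p = 0.00508).

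**Figure D3:**
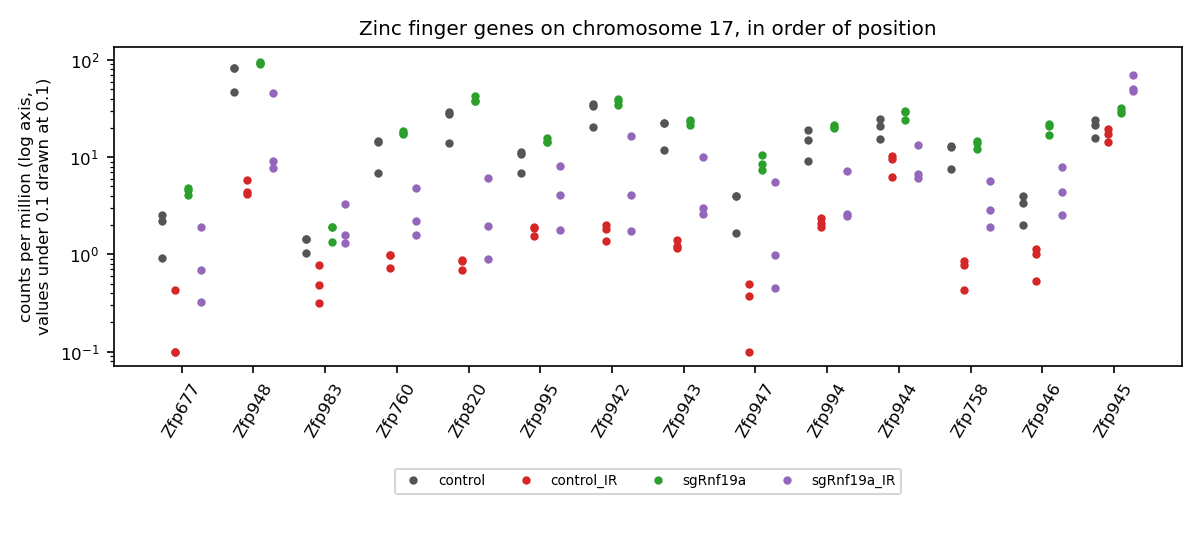
CPM on a log axis of the 14 members of the chromosome 17 group, in chromosomal order, for each library of the 4 groups; values under 0.1 CPM are drawn at 0.1. In most genes the control_IR points lie lowest and 1 sgRnf19a_IR point lies well above the other points of its group, while the sgRnf19a_IR points of Zfp945 are its highest and the sgRnf19a points of Zfp946 are its highest.

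In sgRnf19a cells most members that passed the test also fell after IR, with a smaller median. Of 138 members 70 were lower and 7 higher in sgRnf19a_IR than in sgRnf19a (edgeR), where 17.6% of all genes were lower and 18.0% higher, and the median log2 fold change was −1.21. Without sgRnf19a_IR library 4, 96 members were lower and 8 higher, with a median of −2.0. With offsets the counts were 71 lower and 10 higher with a median of −0.88, where 16.7% of all genes were lower and 18.8% higher. With offsets and without library 4 they were 78 lower and 16 higher with a median of −1.10. Shares over all genes are not given here for the fits with a library left out, so those counts cannot be compared with all genes. Of the KRAB members 57 of 98 were lower (82 without library 4) and 2 higher, and of the others 13 of 39 were lower and 5 higher. Leaving out sgRnf19a_IR library 1 gave 46 lower and 4 higher, and leaving out sgRnf19a library 1 also gave 4 higher.

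The libraries of a group were not alike in the KRAB class. As the median log2 difference from the control mean, KRAB members stood at 0.20, 0.20 and −0.38 in the control libraries and at −2.24, −2.01 and −2.0 in control_IR. In sgRnf19a they stood at 0.41, 0.49 and 0.42, and in sgRnf19a_IR at −1.35, −1.66 and −0.23 for libraries 1, 3 and 4. Thus control library 3 was the lowest of the untreated libraries and sgRnf19a_IR library 4 reached the range of the untreated ones. Members without the box stayed between −0.36 and 0.07 in all 12 libraries, and all genes tested between −0.05 and 0.03.

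**Figure D4:**
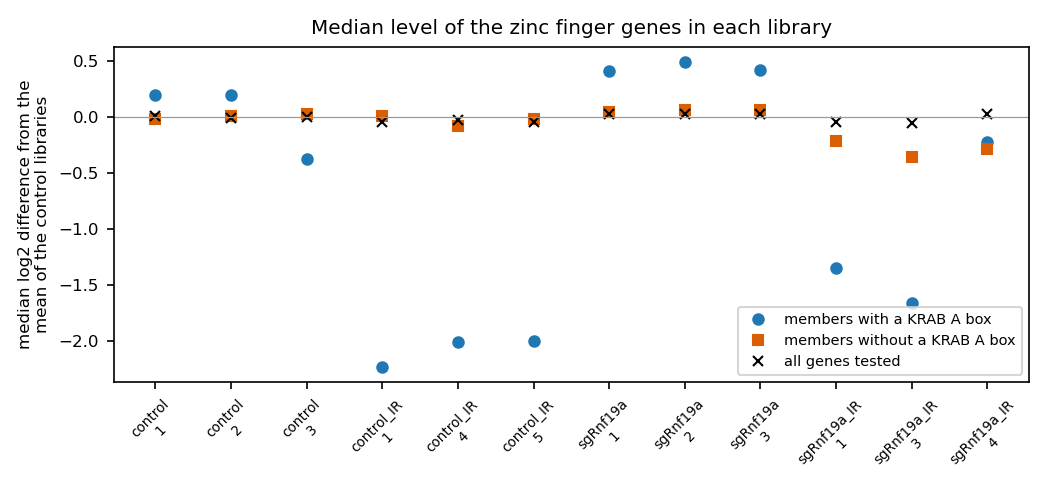
Median log2 difference from the mean of the control libraries, for each of the 12 libraries, over KRAB members, members without a KRAB box and all genes tested. KRAB members lie at −2.0 to −2.24 in control_IR and at −1.35, −1.66 and −0.23 in sgRnf19a_IR, while the other lists stay near 0.

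Zfp820 had the largest fall here, from 38.1, 42.9 and 37.7 CPM to 0.905, 1.97 and 6.07 CPM (log2 −3.73, SE 0.55, edgeR adjusted p = 0.000398). Zfp808 (−3.30, 61.2% of stretches shared), Zfp976 (−3.07, under 3 CPM in every library), Zfp967 (−2.87), Zfp966 (−2.64), Zfp760 (−2.63) and Zfp975 (−2.53) followed. Zfp771 (1.65) and Zfp622 (0.99) were higher here too, as were Zfp628 (0.90), Zfp653 (0.82), Zfp787 (0.70) and the KRAB members Zfp945 (0.90) and Zfp954 (0.64). In all, 65 members were lower and 5 higher in both IR comparisons, which share no library, as were 13.6% and 14.4% of all genes tested. With and without the offsets 46 members and 8.16% of all genes were lower in both. The fall was larger in control cells for 100 of 138 members, and for 72 with offsets, and the share of all genes is not given here. The median difference between the IR responses was 0.67 over the members and 0.09 over all genes tested. Without sgRnf19a_IR library 4 it was 0.09 over the members. The log2 fold changes of both IR comparisons had a rank correlation of 0.81 over the 138 members.

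In untreated cells 2 members were higher and 2 lower in sgRnf19a than in control (edgeR), where 3.02% of all genes were higher and 3.20% lower, so the members' share is near that of all genes. With offsets 4 were higher and 2 lower, where 4.20% of all genes were higher and 4.16% lower. With only these libraries in the fit 15 were higher and 3 lower, where 7.40% of all genes were higher and 8.93% lower. At an unadjusted p under 0.05 there were 10 higher and 4 lower, and the share of all genes at that threshold is not given here. Leaving out control library 1 or 2 left 1 lower, and leaving out control library 3 or any sgRnf19a library left 0. The median log2 difference was 0.36 over the members and 0.44 over KRAB members, of which 1 passed the test.

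Zfp946, a KRAB member with 11 fingers (chr17:22424222-22456689), differed most. It was at 3.4, 3.95 and 2.02 CPM in control and 17.1, 21.2 and 22.1 CPM in sgRnf19a, with no overlap, a 6.44-fold difference (log2 2.69, SE 0.40, edgeR adjusted p = 0.00145, with offsets 2.36). It was higher with the guide after IR as well, at 1.14, 1 and 0.537 CPM in control_IR and 4.43, 2.55 and 7.96 CPM in sgRnf19a_IR (log2 2.49, adjusted p = 0.00174, without library 4 1.99). It fell after IR by similar amounts in both kinds of cell, by 1.82 and 2.01. The members on either side of it, Zfp758 and Zfp945, differed by 0.29 and 0.56 with the guide in untreated cells, neither past the test.

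Zfp697 (chr3:98382461-98753812), without a KRAB box, went from 13.1, 12.7 and 10.6 CPM in control to 26.9, 31.8 and 32.1 CPM in sgRnf19a, a 2.5-fold difference (log2 1.32, SE 0.21, edgeR adjusted p = 0.00201, with offsets 1.33). Among IR-treated libraries the levels were 6.04, 7.46 and 8.24 CPM without and 22, 20.6 and 34.4 CPM with the guide (log2 1.82, adjusted p = 0.000141). The libraries with the guide lay above those without it in both conditions. Its annotated span overlaps 8 genes on the other strand, and no source says whether counting used strand.

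Zfp704 (chr3:9427020-9610085), with the longest transcript of the members at 13.8 kb, was at 44.6, 42.6 and 44.8 CPM in control and 18.7, 21.6 and 19.3 CPM in sgRnf19a, 2.21-fold lower (log2 −1.15, SE 0.26, edgeR adjusted p = 0.0228). The libraries of each group lay within 3 CPM of each other, but leaving out any 1 of these 6 libraries raised the adjusted p to between 0.0544 and 0.0927. With offsets the difference was −1.18 (adjusted p = 0.00044). Zfp706, a small protein gene linked to the exit of embryonic stem cells from self-renewal, was at 84.4, 91.5 and 110 CPM in control and 62.7, 59.2 and 64.8 CPM in sgRnf19a (log2 −0.62, SE 0.13, edgeR adjusted p = 0.0134). With offsets its adjusted p was 0.0743, and over the fits that left out 1 library it ran from 0.0188 to 0.0793. The control_IR libraries were at 99.7, 92.7 and 97.8 CPM, overlapping the untreated range (log2 0.02), and it was again lower with the guide, at 52.5, 55.3 and 46.2 CPM (log2 −0.91, adjusted p = 0.000536).

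**Figure D5:**
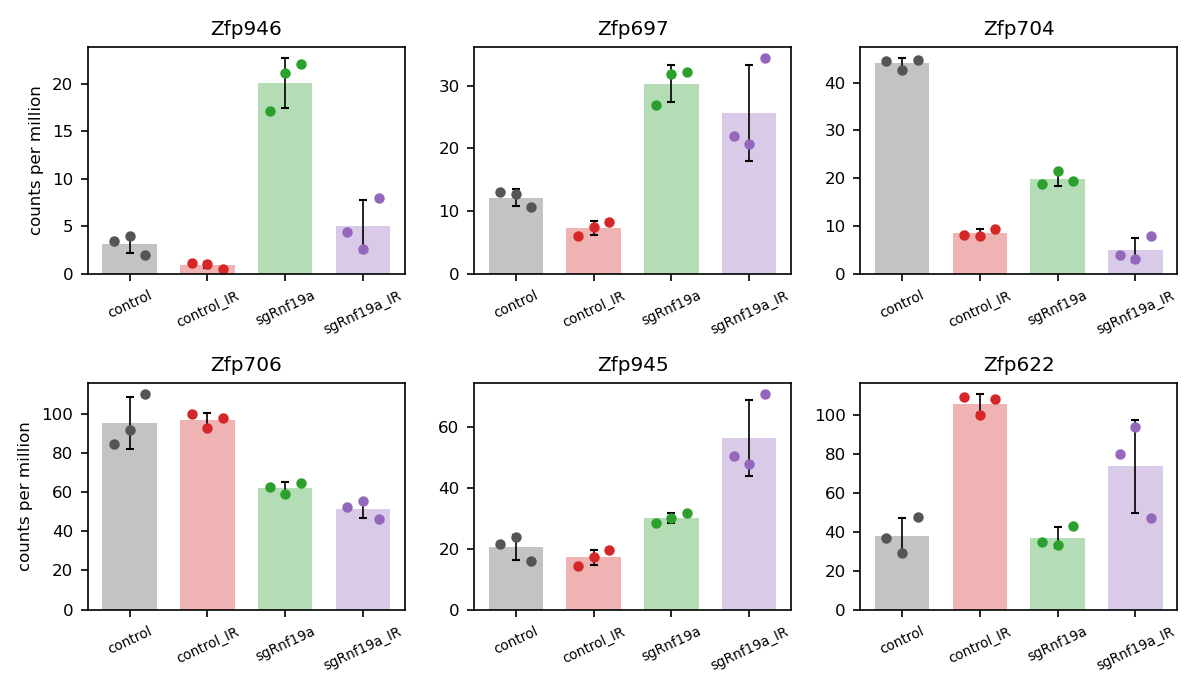
CPM of Zfp946, Zfp697, Zfp704, Zfp706, Zfp945 and Zfp622 in the 4 groups; bars are means of 3 libraries, error bars the SD and points the libraries. Zfp946 and Zfp697 are higher and Zfp704 and Zfp706 lower with the Rnf19a guide in untreated cells, and Zfp622 is higher after IR.

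Among IR-treated cells many members were higher with the guide. In sgRnf19a_IR against control_IR 65 of 138 members were higher and 14 lower (edgeR), where 21.0% of all genes were higher and 12.8% lower, with a median log2 difference of 1.17 over the members and 0.07 over all genes. The control_IR libraries are the same ones as in the IR comparison in control cells. Of the KRAB members 58 of 98 were higher and 6 lower, and of the others 7 of 39 were higher and 8 lower. Much of this rested on library 4, without which 38 members were higher and 9 lower, with a median of 0.43. The share of all genes called in that fit is not given here. With offsets 27 were higher and 12 lower with a median of 0.28, where 11.5% of all genes were higher and 14.6% lower. With offsets and without library 4 the counts were 22 and 12 with a median of 0.04, where 9.21% of all genes were higher and 10.6% lower. Leaving out control_IR library 1, 4 or 5 gave 36, 43 and 42 higher and 5, 8 and 6 lower.

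Zfp763 (chr17:33016863-33033402) was at 0.568, 0.545 and 0.644 CPM in control_IR and 2.07, 1.66 and 9.56 CPM in sgRnf19a_IR, where library 4 was well above the other libraries of the group and all 3 were above control_IR. The difference was 7.54-fold (log2 2.91, SE 0.59, edgeR adjusted p = 0.00396), 1.60 with offsets (adjusted p = 0.00345) and 1.67 without library 4 (adjusted p = 0.000702). Zfp719 was at 3.12, 6.02 and 2.9 CPM in control_IR and 18, 10.3 and 39 CPM in sgRnf19a_IR (log2 2.48, SE 0.44, edgeR adjusted p = 0.00193, without library 4 1.82). Zfp945 was higher in every library, as given above (log2 1.72, adjusted p = 0.000143, with offsets 0.66, adjusted p = 0.0416). These differences also passed the test without library 4.

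Other large differences did not. Zfp619 (3.49, without library 4 1.99 at an adjusted p of 0.169), Zfp953 (2.70, then 1.90 at 0.0526), Zfp712 (2.55, then 1.51 at 0.132) and Zfp960 (2.49, then 1.25 at 0.0622) were past the test with library 4 only (edgeR). For Zfp708 the difference was library 4 itself, with 0 counts in libraries 1 and 3 and 1.36 CPM in library 4. Zfp820, with a difference of 1.88 (adjusted p = 0.0257), was at 0.79 (adjusted p = 0.185) without it.

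The 14 members that were lower with the guide after IR included 8 without a KRAB box, and all but Zfp706 and Zfp704 had transcripts of 50% GC or more. Zfp768 was at 17.7, 13.6 and 11.5 CPM in control_IR and 5.85, 7.18 and 5.67 CPM in sgRnf19a_IR (log2 −1.20, SE 0.19, edgeR adjusted p = 0.00122). Zfp651 was at 13.9, 11.4 and 14.7 CPM and 6.61, 7.14 and 4.98 CPM (log2 −1.10, SE 0.18, edgeR adjusted p = 0.00148). Neither pair of groups overlapped, and both differences passed the test without library 4 as well, at −1.13 and −0.95. Zfp775 (−1.09), Zfp689 (−0.95), Zfp706 (−0.91), Zfp707 (−0.83), Zfp777 (−0.80), Zfp704 (−0.76), Zfp688 (−0.73), Zfp956 (−0.62), Zfp647 (−0.59), Zfp637 (−0.54), Zfp827 (−0.53) and Zfp623 (−0.48) made up the rest. Of these Zfp775, Zfp689, Zfp707, Zfp688, Zfp956, Zfp647 and Zfp623 did not pass without library 4.

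Whether the response to IR itself differed between the guides was asked of the interaction. No member passed the edgeR test in either direction (0 higher and 0 lower), where 0.544% of all genes were higher and 0.137% lower. At an unadjusted p under 0.05 there were 41 members, 33 of them with a smaller fall or larger rise in sgRnf19a cells. The share of all genes at that threshold is not given here, so this skew cannot be called particular to the members. The median over the members was 0.67. DESeq2 called 15 higher and 2 lower, where it called 9.58% of all genes with an adjusted p higher and 2.91% lower. The edgeR fit with offsets, which called 1.23% of all genes higher and 0.830% lower, gave 1 higher (Zfp758, 1.34, adjusted p = 0.0376) and 2 lower (Zfp827, −1.14, adjusted p = 0.0358, and Zfp944, −1.16, adjusted p = 0.0329). Without sgRnf19a_IR library 3 edgeR called 26 higher and 2 lower, where 10.6% of all genes were higher and 2.82% lower. Without library 4 it called 1 higher, Zfp763 (1.36, adjusted p = 0.049), with a median of 0.09.

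Among the members with a known role, the KRAB gene Zfp809, whose protein binds the primer binding site of retroviruses and brings TRIM28 to it, was at 10.6, 13.7 and 7.36 CPM in control and 1.31, 4.02 and 3.25 CPM in control_IR. That was a fall by 1.88 on the log2 scale (SE 0.50, edgeR adjusted p = 0.0084, with offsets −1.38). In sgRnf19a cells it went from 21.1, 23.6 and 18.8 CPM to 3.76, 3.35 and 12 CPM (−1.73, adjusted p = 0.0167), and the higher untreated level in sgRnf19a did not pass the test (1.0, adjusted p = 0.318). Zfp932, which also binds endogenous retroviruses, fell by 1.68 and 1.80, but with offsets the difference in control cells was −0.10 (adjusted p = 0.84), and 66.7% of its stretches are shared. Zfp827, which recruits NuRD to telomeres, fell by 0.92 in control cells (−0.11 with offsets, adjusted p = 0.659) and by 1.67 in sgRnf19a cells (−1.24 with offsets, edgeR adjusted p = 0.000248).

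Several members with a known role did not pass the test for IR in control cells. Zfp830 was at 27.5, 30.5 and 27.4 CPM in control and 26.9, 27.1 and 33.7 CPM in control_IR (log2 0.04, SE 0.13, edgeR adjusted p = 0.835). Zfp687, of a chromatin complex with ZMYND8, was at 64.7, 65.3 and 73 CPM and at 71.8, 64.8 and 69.6 CPM (0.02, SE 0.14), and Zfp740 differed by −0.08 (SE 0.16). Zfp746, whose protein PARIS is a substrate of the ubiquitin ligase Parkin, differed by 0.13 (SE 0.16), and Zfp703, a repressor of the NET family, by 0.40 (SE 0.27). Zfp689 differed by 0.31 (SE 0.26). Zfp750, a regulator of epidermal differentiation, was under 1 CPM in all libraries, too low to show a change. These members, other than Zfp750 with 50% GC and Zfp830 with 48.6%, have transcripts of 51% to 60.6% GC. Zfp706, given above, did not pass this test either, and its transcript has 43.4% GC.

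The proteins through which KRAB zinc fingers act were taken as a fixed list of silencing genes, of which 22 were tested. In control cells 15 were lower after IR and 2 higher (10 and 0 with offsets). Of all genes 25.7% were lower and 22.2% higher there (16.9% and 23.6%). In sgRnf19a cells 12 were lower and 1 higher (9 and 0), against 17.6% and 18.0% of all genes (16.7% and 18.8%). With the guide in untreated cells 0 passed, where 3.02% of all genes were higher and 3.20% lower. With offsets 2 were lower there, Cbx3 and Cbx5, where 4.20% of all genes were higher and 4.16% lower. With the guide after IR 7 were higher and 3 lower, or 31.8% and 13.6% of the list, against 21.0% and 12.8% of all genes. With offsets 4 and 4 passed, each 18.2% of the list, against 11.5% and 14.6% of all genes. Trim28, the corepressor itself, was at 218, 229 and 288 CPM in control and 319, 268 and 298 CPM in control_IR (log2 0.27, SE 0.21, edgeR adjusted p = 0.321). Setdb1 fell by 0.90 (adjusted p = 0.000261), its partner Atf7ip by 1.56 (adjusted p = 3.51e-05), and the HUSH subunit genes Tasor by 3.68 (adjusted p = 0.000258) and Mphosph8 by 3.50 (adjusted p = 0.000244). With offsets these differences were −0.36, −0.45, −1.53 and −2.40. Setdb1 and Tasor are named here for their role. The 4 genes of the list with the smallest p in this comparison were Atf7ip, Mphosph8, Cbx5 (−2.51, with offsets −0.69) and Dnmt1 (−0.87, with offsets −0.48). The 2 genes of the list that rose were Hdac1 (0.33) and Mta2 (0.48), neither past the test with offsets. Both belong to the NuRD complex, but the NuRD genes Chd3 (−0.57), Chd4 (−0.91) and Hdac2 (−1.20) were lower, and Mta1 (0.17) did not pass. With offsets only Chd4 of these was past the test (−0.40).

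Zinc finger genes outside the range of symbols were counted in the same way. Of 179 tested Zfp genes with lower numbers in their symbols, 116 were lower and 19 higher in control_IR, with a median log2 fold change of −1.43 (88 and 19 with offsets, median −0.57), and 77 were lower and 8 higher in sgRnf19a_IR, with a median of −0.83. Of 40 Zbtb genes, which pair fingers with a BTB domain, 17 were lower and 6 higher in control_IR, with a median of −0.28 (10 and 10 with offsets, median 0.03). Of 19 Zscan and Zkscan genes 9 were lower and 2 higher (7 and 1 with offsets). Of all genes tested 25.7% were lower and 22.2% higher in control_IR, and 16.9% and 23.6% with offsets. In sgRnf19a_IR 17.6% of all genes were lower and 18.0% higher. With the guide, these lower-numbered Zfp genes were 1 higher and 1 lower in untreated cells, where 3.02% and 3.20% of all genes were. After IR 79 were higher and 15 lower, against 21.0% and 12.8% of all genes. With offsets 42 were higher and 16 lower, against 11.5% and 14.6%. Without library 4, 57 of 182 were higher and 11 lower, and the share of all genes is not given here. With offsets and without library 4 the counts were 28 and 14, against 9.21% and 10.6%.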

How the data were processed

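RNA from cell pellets was freed of ribosomal RNA, made into strand-marked libraries with 12 PCR cycles and read as pairs of 37 bp, per the labels' protocols. Bowtie2, HTSeq, DESeq2 and the builds mm10 and GRCm39 are named in the submitters' processing notes, without versions or roles. The authors deposited expected counts per gene, in which 4 is found 5833 times, 3 is found 961 times and 5 is found 959 times, so 1 read pair is worth about 4 counts. They also deposited FPKM per gene, used here for levels, names and coordinates. Another 12 columns, 1 per library, hold a copy of the counts and were left aside.

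Genes were kept by filterByExpr (minimum count 10, minimum total 15) and fitted with a mean for each of the 4 groups, all 12 libraries in 1 model, TMM factors and edgeR 4.0.16's quasi-likelihood test in R 4.3.3, 2-sided, called at a Benjamini-Hochberg adjusted p under 0.05 over all 18183 genes. The SE is the log2 fold change divided by the square root of F. Offsets came from splines of 5 degrees of freedom on length and GC. Alternatives used DESeq2 1.42.0 and limma 3.58.1 on log2(FPKM + 1) and log2(FPKM + 0.1). The fits were tested on simulated data. Figures were drawn with matplotlib 3.10.9.

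Of the 138 members 121 have the start and end of GENCODE M21 (GRCm38), and all are in it. Transcript length and GC were read from a gene's longest coding transcript there, and the KRAB box from any coding transcript. Fingers were read as C, 2 to 4 residues, C, 12 residues, H, 3 to 5 residues, H. Fingers and shared stretches came from the transcript with the longest coding sequence, which can be another one. Another gene overlaps 25 members on the same strand and 35 on the other.

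The members and gene lists were chosen with earlier results of these data known. The text names up to 8 called members per direction and comparison with the largest fold change, at least 1 CPM in the higher group and no overlap. It also names those called against the majority, the 6 most abundant, the threshold's neighbours, examples of each gene group and members with a known role. Of the silencing genes it names the 4 with the smallest p for IR in control cells, and others picked outside that rule.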

Additional observations from a re-analysis of the deposited data

How the results depend on the processing

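Over all results and alternatives 1920 values kept their direction and side of the threshold, 260 became weaker, 53 stronger and 17 reversed. Under upper-quartile scaling the median of all genes shifted by 0.21 for IR in control cells, by 0.11 for IR in sgRnf19a cells and by −0.13 for the guide after IR, and the members counted 89 lower and 8 higher, 68 and 8, and 17 and 55.

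In control cells the members higher after IR were 2 in each limma fit on FPKM, and in sgRnf19a cells 1. Members lower in sgRnf19a cells were 43 with only the groups compared in the fit and 106 on log2(FPKM + 1). For the guide in untreated cells, members higher were 5 by DESeq2, 4 with offsets, 4 with counts divided by 4, 15 with only these groups, and 6 and 4 on log2(FPKM + 1) with and without the filter. For the guide after IR, members higher were 27 with offsets, 18 with only these groups, 27 and 9 on log2(FPKM + 1) with and without the filter and 41 on log2(FPKM + 0.1). Members lower there were 7 with no filter on counts, 3 with only these groups and 5 on unfiltered log2(FPKM + 1). The difference between the IR responses gave 15 higher and 2 lower by DESeq2, and 1 and 2 with offsets. The offsets with sgRnf19a_IR library 4 left out, chosen after seeing the data, gave 16 higher for IR in sgRnf19a cells, 22 higher for the guide after IR, and 1 higher and 2 lower for the difference. Shares over all genes for these fits are not given here except where stated above. The causes were not tested.

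With 1 library left out at a time, IR in control cells gave 88 to 94 lower and 5 to 7 higher, IR in sgRnf19a cells 46 to 96 and 4 to 8, the guide in untreated cells 0 to 1 lower and 2 to 3 higher, the guide after IR 5 to 11 and 36 to 76, and the difference 0 to 2 and 0 to 26.

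On the FPKM scale some members with no clear change reversed sign. After IR in control cells Zfp687 was at −0.43, −0.47 and −0.43, Zfp706 at −0.44, −0.46 and −0.44, and Zfp830 at −0.43, −0.46 and −0.43 (pseudocount 1, 0.1 and unfiltered), and Zfp687 in sgRnf19a cells at −0.45, −0.48 and −0.45. With offsets and without library 4, Zfp706 stood at 0.67 and Zfp740 at 0.32 for IR in sgRnf19a cells, Zfp638 at −0.20 for the guide after IR, and Zfp708 at 0.00. With 1 library left out, Zfp708's fitted value for the guide after IR, which depends on the prior count, ran from 0.00 without library 4 to 8.29.

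Untreated libraries carry the same replicate numbers in both groups. Deviations of same-numbered libraries correlated at −0.157, −0.0096 and 0.0329, and not every library correlated best with its own number. With 3 libraries a group, these values are too few to tell whether the numbers pair the samples. A fit with the replicate block, on the untreated libraries only, gave 21 members higher with the guide, where the same libraries gave 15 without the block, and 12 with the block and offsets. Without the block 7.40% of all genes were higher. The share with the block is not given here, so the counts of 21 and 12 cannot be compared with all genes. IR-treated columns carry other numbers, and no paired fit was made with them.

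Depth limits members near 1 CPM, where a library holds few read pairs. With a gap of 0.5 Mb in place of 1 Mb, 67 members lay in gene groups.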
